A study of Mus musculus with 6 samples.

Results

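The Nat8 family of N-acetyltransferases was examined in RNA-seq of primary renal tubular epithelial cells (PTECs) from mice. Its 8 genes, Nat8 and Nat8f1 to Nat8f7, were taken by symbol from the 46095 gene rows of the count table, and all 8 were found. The family was selected with the counts and fold changes of the comparison below already known, so its counts, levels, fold changes and overlap of the labels are given as a description with no test. The study compared PTECs freshly isolated from 10-week-old mice under 2 labels, with 3 mice each. The libraries labelled VHL-KO (replicates 1, 2 and 4) carried floxed Vhl alleles and the Ksp-Cre transgene, and mice of the VHL-KO;SETD2-KO label (numbered 2, 3 and 4) carried floxed Setd2 alleles in addition. By genotype, deletion of Vhl was thus shared by every mouse, on a C57 background, and no mouse with intact Vhl was analysed here. Ksp-Cre is driven by the promoter of cadherin 16, which is active in epithelial cells along the nephron, most strongly in its distal segments and the collecting ducts.

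NAT8 is a membrane enzyme of the endoplasmic reticulum, abundant in the kidney proximal tubule and the liver. It transfers the acetyl group of acetyl-CoA to cysteine S-conjugates, which is the last step in making mercapturic acids, the form in which many electrophilic chemicals and leukotrienes are excreted in urine. The earlier steps are the joining of glutathione to the chemical by glutathione S-transferases and the trimming of that conjugate by gamma-glutamyltransferase and dipeptidases of the brush border. NAT8 has also been described as an acetyltransferase for lysines of proteins passing through the endoplasmic reticulum. The mouse genome holds a tandem array of related genes, first called camello-like genes, and the functions of most of the copies are less well known than that of Nat8.

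The 8 genes differ in how well a sequencing read can be assigned to them, and the start of their coding sequences shows this. The first coding bases are printed for all 8 members, from GENCODE M21 transcripts on GRCm38, with capitals at every base that differs from Nat8f3 in the alignment.
Nat8f3: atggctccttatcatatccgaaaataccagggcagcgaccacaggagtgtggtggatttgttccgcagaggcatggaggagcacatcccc
Nat8f6: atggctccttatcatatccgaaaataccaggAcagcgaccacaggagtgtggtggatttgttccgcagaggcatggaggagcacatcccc
Nat8f7: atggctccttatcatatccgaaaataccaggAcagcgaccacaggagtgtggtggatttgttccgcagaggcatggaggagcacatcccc
Nat8f2: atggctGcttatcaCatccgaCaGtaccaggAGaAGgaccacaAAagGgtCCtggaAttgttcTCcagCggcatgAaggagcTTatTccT
Nat8f4: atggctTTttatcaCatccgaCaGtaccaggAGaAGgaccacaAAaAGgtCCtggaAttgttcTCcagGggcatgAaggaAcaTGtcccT
Nat8: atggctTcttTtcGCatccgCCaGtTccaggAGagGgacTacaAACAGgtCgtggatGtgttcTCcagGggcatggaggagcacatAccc
Nat8f5: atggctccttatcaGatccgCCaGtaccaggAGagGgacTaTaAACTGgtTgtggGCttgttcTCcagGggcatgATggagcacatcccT
Nat8f1: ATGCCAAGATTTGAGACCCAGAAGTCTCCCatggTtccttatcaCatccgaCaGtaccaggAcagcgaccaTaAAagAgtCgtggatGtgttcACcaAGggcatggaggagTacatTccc
Nat8f6 and Nat8f7 each differ from Nat8f3 at 1 of these 90 positions, whereas Nat8f2, Nat8f4, Nat8 and Nat8f5 differ at 22 to 24. Nat8f1 begins with an additional stretch, printed in capitals at its start. Over the whole coding sequence, Nat8f3 shared 99.6% of aligned positions with Nat8f7 and 99.3% with Nat8f6, and Nat8f6 shared 99.1% with Nat8f7. The next closest pair was Nat8f2 and Nat8f4 at 84.7%, followed by Nat8 with Nat8f5 at 79.4% and Nat8 with Nat8f1 at 78.9%. The least alike were Nat8f2 and Nat8f3 at 64.7%. The translated proteins, 226 to 238 residues long, ranged in identity from 50.2% for Nat8f2 with Nat8f6 to 99.1% for Nat8f3 with Nat8f7.

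The consequence for read assignment was measured as the share of a gene's 150-base transcript windows that also occur, letter for letter, in another gene. It was 0% for Nat8 and for Nat8f5, 1.87% for Nat8f2 and 1.83% for Nat8f4. It was 37.6% for Nat8f3, 33.6% for Nat8f6 and 53.5% for Nat8f7, nearly all of it shared among these 3 genes, so their single counts are uncertain and their sum is given as well. For Nat8f1 the share was 21.7%, most of it with Tprkb, a subunit of the tRNA-modifying KEOPS complex that is transcribed from the opposite strand. The library kit marked strand, but whether the counting used strand was not given in the sources used here, so reads of Nat8f1 and Tprkb may not be told apart in that stretch. The GENCODE models of Nat8f5 and Nat8f6 overlap on the same strand.

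All 8 genes lie on the minus strand of mouse chromosome 6 within 209 kb (GRCm38.p6, RefSeq, 85706707 to 85915914), and each has its coding sequence in 1 exon. Their order by position is Nat8f7, Nat8f3, Nat8f6, Nat8f5, Nat8, Nat8f2, Nat8f4 and Nat8f1. RefSeq promoter windows, 250 bases before to 50 bases after a transcript start, were found for all 8 members, 10 windows in all since Nat8 and Nat8f4 have 2 each. They are shown for the members with the highest levels and for the near-identical pair, written on the genes' strand in the GRCm38.p6 RefSeq table, with capitals at matches, on either strand, to CAAAGTCC (part of the HNF4 motif), TATAAA or ACGTG (the core of the hypoxia response element).
Nat8 (chr6:85832230-85832529): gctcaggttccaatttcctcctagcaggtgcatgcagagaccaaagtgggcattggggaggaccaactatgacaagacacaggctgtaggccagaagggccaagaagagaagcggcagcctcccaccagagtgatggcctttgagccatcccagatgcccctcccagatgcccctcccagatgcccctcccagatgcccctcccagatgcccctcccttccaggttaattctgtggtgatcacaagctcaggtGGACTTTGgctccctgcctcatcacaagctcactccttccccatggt
Nat8f1 (chr6:85915583-85915882): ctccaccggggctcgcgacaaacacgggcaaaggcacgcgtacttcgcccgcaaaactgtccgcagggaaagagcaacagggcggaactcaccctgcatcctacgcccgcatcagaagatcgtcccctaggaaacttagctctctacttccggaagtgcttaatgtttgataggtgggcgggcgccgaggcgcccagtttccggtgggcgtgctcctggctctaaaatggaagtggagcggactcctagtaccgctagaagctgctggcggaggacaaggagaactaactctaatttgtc
Nat8f5 (chr6:85820923-85821222): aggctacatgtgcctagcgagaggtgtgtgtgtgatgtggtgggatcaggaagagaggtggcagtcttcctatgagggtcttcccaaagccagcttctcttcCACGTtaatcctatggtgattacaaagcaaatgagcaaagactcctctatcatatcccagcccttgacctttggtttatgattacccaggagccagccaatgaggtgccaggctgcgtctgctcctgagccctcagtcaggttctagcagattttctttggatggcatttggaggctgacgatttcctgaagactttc
Nat8f6 (chr6:85809828-85810127): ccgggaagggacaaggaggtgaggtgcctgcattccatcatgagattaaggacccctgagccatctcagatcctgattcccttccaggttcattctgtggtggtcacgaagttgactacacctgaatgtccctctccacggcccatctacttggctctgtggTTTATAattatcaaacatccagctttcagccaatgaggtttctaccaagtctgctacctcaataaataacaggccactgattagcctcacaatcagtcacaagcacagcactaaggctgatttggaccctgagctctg
Nat8f7 (chr6:85708512-85708811): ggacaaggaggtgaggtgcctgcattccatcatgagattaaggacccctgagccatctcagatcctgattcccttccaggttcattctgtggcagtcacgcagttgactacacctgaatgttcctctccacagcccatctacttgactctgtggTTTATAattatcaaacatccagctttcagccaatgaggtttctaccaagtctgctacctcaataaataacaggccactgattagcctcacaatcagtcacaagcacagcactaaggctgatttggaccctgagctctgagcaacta
CAAAGTCC was found in 1 of the 10 member windows, beginning 3 bases after the RefSeq start in this Nat8 window, and in 1.42% of all 32851 promoters of the table. For neither Nat8 window were bases just after the start found in a GENCODE transcript of Nat8. The same held for the Nat8f4 window that begins at 85904889. TATAAA occurred in 3 member windows (Nat8f6, Nat8f7 and 1 of the Nat8f4 windows) and in 13.6% of all. ACGTG occurred once, beginning 148 bases before the start in Nat8f5, against 19.6% of all promoters. No match overlapped that of another motif. The windows of Nat8f6 and Nat8f7 were 92.9% identical and shared an unbroken run of 146 bases. The other Nat8 window (chr6:85836808-85837107) shared a run of 100 bases with that of Nat8f3, and no other pair of members shared a run longer than 13 bases. A match describes the letters in the window, not a bound site.

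The libraries held 11168552 to 17883466 counts, so that 3 counts, the smallest signal taken as detectable, correspond to 0.168 to 0.269 CPM (counts scaled to a common library size), which covers counting error only since reads are not independent molecules. Every member exceeded this in every library. Setd2, the gene whose deletion defines the second label, was at 71.5, 73.9 and 12.3 CPM in VHL-KO replicates 1, 2 and 4 and at 79.6, 57.4 and 89.6 CPM in VHL-KO;SETD2-KO replicates 2, 3 and 4. The counts of Setd2 therefore go against the label, and groups are named below by the label of the library. Counts over a gene need not show the loss of a floxed exon. The library labelled VHL-KO replicate 4 stood apart: 11.3% of its counts were mitochondrial against 25.9% to 36.4% in the other 5, its Setd2 level was the lowest, and Cdh16, the gene whose promoter drives the Cre, was at 2257 CPM against 332 to 684 CPM elsewhere. The fold changes of the members and pathway genes below, and the counts of called members and listed genes, are therefore also given without it.

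Levels between genes were compared as CPM per kb of exon, since the exon length of the members runs from 0.986 to 3.30 kb. On this scale Nat8f1 was the most abundant member, with a mean of 478 under VHL-KO and 108 under VHL-KO;SETD2-KO, and Nat8 followed with 351 and 52.0. The Nat8f1 level exceeded the Nat8 level within each of the 6 libraries, although their ranges overlapped under VHL-KO. Nat8f5 and Nat8f6 formed the next level, at 61.5 and 60.1 CPM per kb under VHL-KO and 15.5 and 16.6 under VHL-KO;SETD2-KO, and could not be ordered. Nat8f2 was below them at 13.3 and 7.42 CPM per kb, with no overlap under either label. Nat8f4 (3.03 and 1.81), Nat8f3 (2.21 and 0.868) and Nat8f7 (1.67 and 1.16) were the lowest. Under VHL-KO, over its 3 libraries, the neighbours in this order overlapped. Under VHL-KO;SETD2-KO the mean of Nat8f7 was above that of Nat8f3, and Nat8f7 overlapped with both others. Nat8f4 and Nat8f3 did not overlap under that label. In VHL-KO replicates 1 and 2 alone, the mean levels were 220 CPM per kb for Nat8f1, 165 for Nat8, 54.3 for Nat8f5, 46.7 for Nat8f6, 15.8 for Nat8f2, 3.42 for Nat8f4, 1.59 for Nat8f3 and 0.664 for Nat8f7. The order of the members by mean under VHL-KO was thus unchanged. Nat8f1 supplied 39.7% to 55.2% of the family's counts in a library and Nat8 17.3% to 33.5%.

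**Figure D1:**
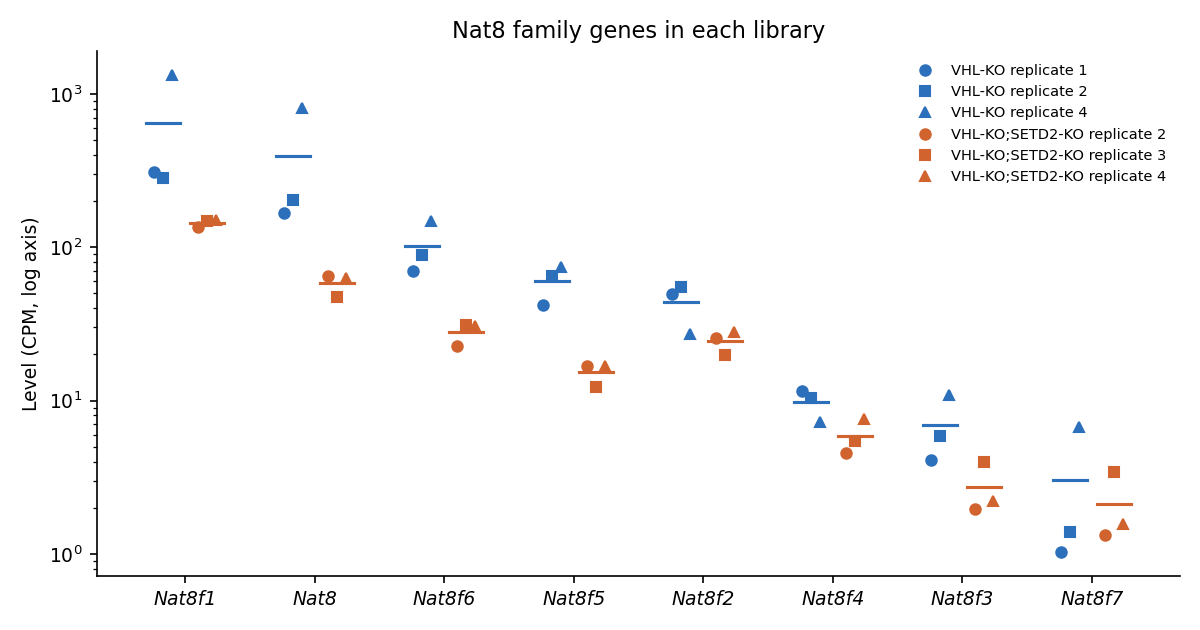
Level of each Nat8 family gene in each library, in CPM on a log axis, ordered by mean level under VHL-KO. Points are libraries and bars are means of 3 libraries. For Nat8f1, Nat8, Nat8f6, Nat8f5 and Nat8f3 all VHL-KO;SETD2-KO libraries lie below all VHL-KO libraries, whereas Nat8f2, Nat8f4 and Nat8f7 overlap.

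Nat8 (chromosome 6, 85830387 to 85836857), the cysteine S-conjugate acetyltransferase itself, was covered by 2776, 2188 and 8677 counts under VHL-KO, in the order of replicates 1, 2 and 4. Under VHL-KO;SETD2-KO it had 1226, 837 and 1005 counts, in the order of replicates 2, 3 and 4. As CPM these were 168, 202 and 812 against 65.1, 47.1 and 63.0. Every VHL-KO;SETD2-KO library was below every VHL-KO library, and replicate 4 of VHL-KO was far above both of its fellows, 4.38-fold over their mean. The means were 394 ± 362 CPM (SD, n = 3) and 58.4 ± 9.85 CPM (SD, n = 3). The fitted log2 fold change of VHL-KO;SETD2-KO over VHL-KO was -2.75 (SE 0.69), or 6.74-fold lower. Without VHL-KO replicate 4 it was -1.67 (SE 0.19), or 3.18-fold lower. The difference was thus smaller without that library, and its standard error was smaller too.

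Nat8f1 (85910154 to 85915914), the most abundant member, was likewise highest in VHL-KO replicate 4. It was at 308, 282 and 1337 CPM in the VHL-KO libraries and at 135, 149 and 151 CPM in the VHL-KO;SETD2-KO libraries. The 3 VHL-KO;SETD2-KO libraries were within a narrow range, 145 ± 8.98 CPM (SD, n = 3), and did not overlap with VHL-KO at 642 ± 601 CPM (SD, n = 3). The log2 fold change was -2.15 (SE 0.68) over all 6 libraries and -1.03 (SE 0.15) without VHL-KO replicate 4, which is 4.43-fold and 2.04-fold lower. Tprkb, with which part of its sequence is shared, had a log2 fold change of -0.62 (SE 0.40) over all 6 libraries and -0.83 (SE 0.17) without VHL-KO replicate 4.

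Nat8f5 (85817218 to 85820972), whose transcript shares no 150-base window with another gene, was the member whose fold change moved least with VHL-KO replicate 4 among those that did not overlap. Its levels were 41.7, 65.3 and 74.8 CPM under VHL-KO and 16.8, 12.3 and 16.7 CPM under VHL-KO;SETD2-KO. The means were 60.6 ± 17.1 CPM (SD, n = 3) and 15.3 ± 2.56 CPM (SD, n = 3). In VHL-KO replicate 4 it stood at 1.40-fold the mean of replicates 1 and 2. The log2 fold change was -1.99 (SE 0.41), or 3.96-fold lower, and -1.81 (SE 0.24), or 3.50-fold lower, without that library.

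Nat8f6 (85808044 to 85809877), Nat8f3 (85760631 to 85765767) and Nat8f7 (85706707 to 85708885), the 3 near-identical copies, were unequal in level. Nat8f6 was at 69.5, 89.0 and 148 CPM under VHL-KO and at 22.5, 31.3 and 30.7 CPM under VHL-KO;SETD2-KO, with a log2 fold change of -1.86 (SE 0.44), and -1.49 (SE 0.20) without VHL-KO replicate 4. Nat8f3 was at 4.12, 5.83 and 10.8 CPM against 1.97, 4.00 and 2.20 CPM, so that its labels were barely separate. Its log2 fold change was -1.35 (SE 0.55), and -0.87 (SE 0.41) without VHL-KO replicate 4. Nat8f7 was at 1.03, 1.39 and 6.73 CPM against 1.33, 3.44 and 1.57 CPM, from 15 to 72 counts a library. Its labels overlapped, and its log2 fold change of -0.52 (SE 0.81) turned to 0.81 (SE 0.56) without VHL-KO replicate 4. As the reads of these 3 genes could be split among them, their sum is the firmer value. It was 74.7, 96.2 and 165 CPM under VHL-KO and 25.8, 38.7 and 34.5 CPM under VHL-KO;SETD2-KO. The labels did not overlap in the sum, and the ratio of the 2 means, VHL-KO to VHL-KO;SETD2-KO, was 3.40, or 2.59 without VHL-KO replicate 4.

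Nat8f2 (85865422 to 85869137) and Nat8f4 (85899050 to 85909315), the pair of relatives next to each other in the array, followed another order of libraries. Nat8f2 was at 49.6, 55.0 and 27.3 CPM under VHL-KO and at 25.7, 19.8 and 28.0 CPM under VHL-KO;SETD2-KO. Nat8f4 was at 11.6, 10.5 and 7.30 CPM against 4.57, 5.41 and 7.53 CPM. In both genes VHL-KO replicate 4 was the lowest of its label, at 0.522-fold and 0.662-fold the mean of replicates 1 and 2, and lay below VHL-KO;SETD2-KO replicate 4, so that the labels overlapped. The log2 fold changes were -0.84 (SE 0.42) and -0.75 (SE 0.42). Without VHL-KO replicate 4 they were -1.10 (SE 0.18) and -0.92 (SE 0.27).

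Of the 8 members, all of which passed the filter on low counts, 5 were called lower under VHL-KO;SETD2-KO by edgeR's quasi-likelihood test at an unadjusted p under 0.05 with a change of at least 1.5-fold, where 4.68% of the 14611 tested genes were called lower and 2.65% higher. Since the family was chosen with this contrast known, nothing is read from that count. The 5 were Nat8, Nat8f1, Nat8f3, Nat8f5 and Nat8f6, the same 5 whose labels did not overlap. Among all tested genes 11.0% were lower and 9.62% higher under VHL-KO;SETD2-KO without overlap. Without VHL-KO replicate 4, Nat8f2 and Nat8f4 were called and Nat8f3 was not, which made 6, beside 7.14% of genes called lower and 8.29% called higher. DESeq2 called 5 members lower at the same thresholds, beside 7.79% of genes. At an adjusted p under 0.05 edgeR and limma-voom each called 0 of the 8 members and 1 gene in the whole table, while DESeq2 called Nat8 and Nat8f1, beside 56 genes lower and 1 higher in the whole table, and gave no adjusted p for the other 6 members. The median log2 fold change of the members was -1.60, and -1.06 without VHL-KO replicate 4, against 0.01 and 0.03 over all tested genes.

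**Figure D2:**
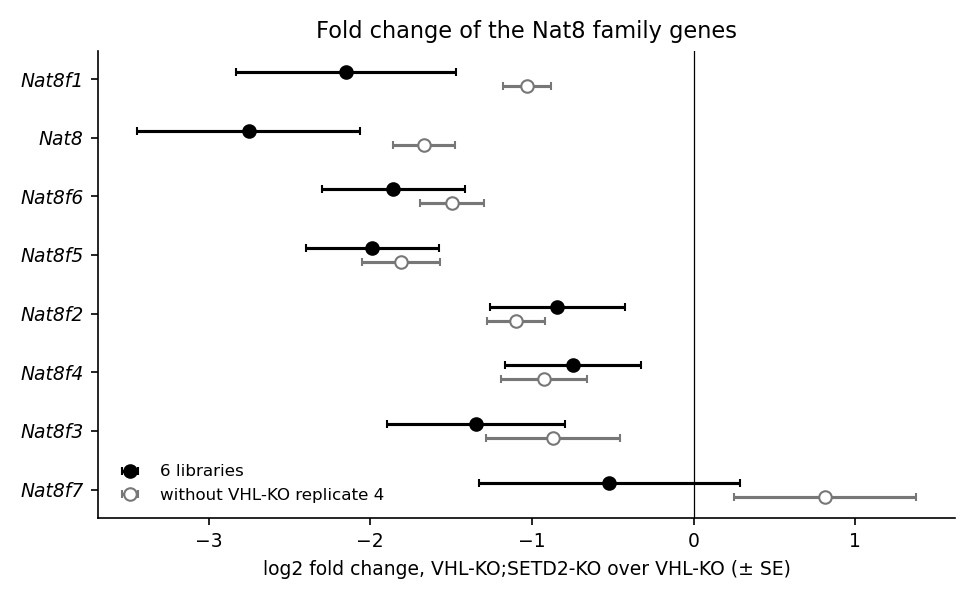
Log2 fold change of each member, VHL-KO;SETD2-KO over VHL-KO, with its standard error. Filled points are fits on 6 libraries and open points are fits without VHL-KO replicate 4. Without that library Nat8 moves from -2.75 to -1.67 and Nat8f1 from -2.15 to -1.03, and Nat8f7 changes sign from -0.52 to 0.81.

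Ratios of counts within a library, which do not depend on the scaling between libraries, showed which members kept step. The ratio of Nat8 to Nat8f5 counts was 4.03 and 3.10 in VHL-KO replicates 1 and 2 and 3.87, 3.82 and 3.78 in the VHL-KO;SETD2-KO libraries, but 10.8 in VHL-KO replicate 4. The ratio of Nat8 to Nat8f1 was 0.546, 0.717 and 0.607 under VHL-KO and 0.484, 0.316 and 0.418 under VHL-KO;SETD2-KO. Nat8 thus made up less relative to Nat8f1 in each VHL-KO;SETD2-KO library than in any VHL-KO library. The ratio of Nat8 to Nat8f2 was 3.39, 3.68 and 29.7 under VHL-KO and 2.54, 2.38 and 2.25 under VHL-KO;SETD2-KO. The ratio of Nat8f2 to Nat8f4 stayed within 3.66 to 5.62 in all 6 libraries, and VHL-KO replicate 4, at 3.74, lay inside the range of the others.

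In VHL-KO replicate 4 the level of a gene also varied with its exon length. In that library, relative to the mean of VHL-KO replicates 1 and 2, tested genes with under 1500 nt of exon had a median ratio of 2.16 (1361 genes) and those with over 3000 nt had a median ratio of 0.686 (9505 genes). Nat8 (1123 nt), Nat8f1 (1345 nt) and Nat8f5 (986 nt) are of the first kind, and Nat8f2 (3301 nt) and Nat8f4 (3223 nt) of the second. Nat8f3, at 3134 nt, was 2.18-fold higher in that library, although it is of the second kind too. Nat8f7, at 1822 nt, had the highest ratio of the members, 5.57, and Nat8f5, the shortest, had a ratio of 1.40. The part that length plays in the levels of the members was not tested.

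**Figure D3:**
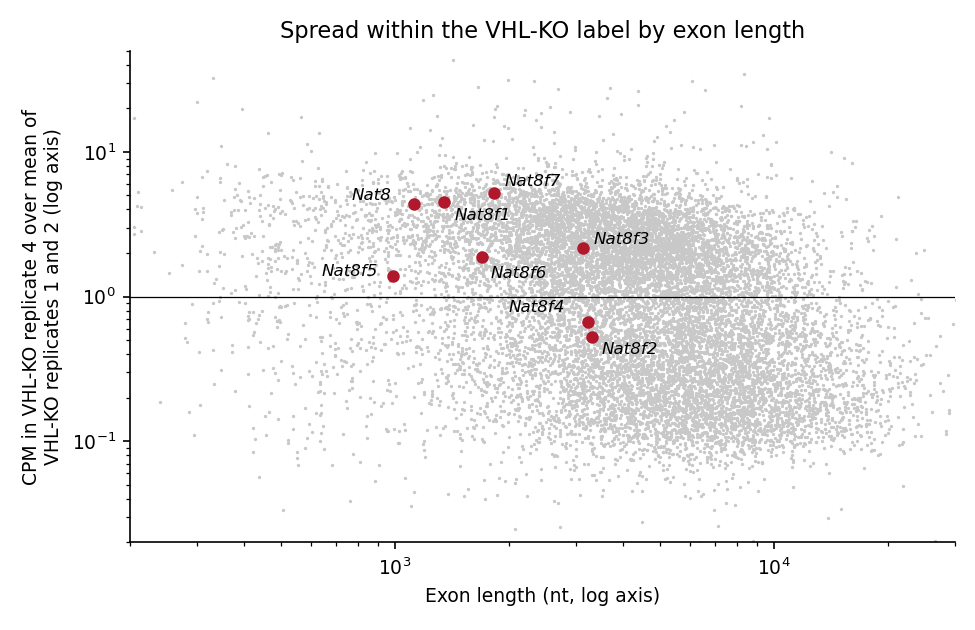
Ratio of CPM in VHL-KO replicate 4 to the mean of VHL-KO replicates 1 and 2, against exon length, both on log axes. Grey points are the 13811 tested genes with a known length and red points are the members. Nat8, Nat8f1 and Nat8f7 lie above 4 and the longer Nat8f2 and Nat8f4 below 1, whereas Nat8f5, the shortest, and Nat8f3, of similar length to Nat8f4, lie between.

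The summed level of the family was 654, 712 and 2423 CPM in VHL-KO replicates 1, 2 and 4 and 273, 273 and 301 CPM in VHL-KO;SETD2-KO replicates 2, 3 and 4. The ratio of the means was 4.48, and 2.42 without VHL-KO replicate 4. Markers of the proximal tubule, the segment in which Nat8 is known to be expressed, were measured in the same libraries. The summed level of 12 such markers was 22305, 21148 and 27600 CPM under VHL-KO and 9128, 10934 and 10720 CPM under VHL-KO;SETD2-KO, with no overlap and none of the 12 at 0. Taken singly, 5 of the 12 were lower and 0 higher without overlap, beside 11.0% and 9.62% of all tested genes. In VHL-KO replicate 4 Slc34a1 (the phosphate carrier NaPi-IIa) alone was at 14206 CPM, against 4979 and 4759 CPM in replicates 1 and 2. Lrp2, in contrast, was at 940 CPM there, against 3384 and 3351 CPM. That was below the VHL-KO;SETD2-KO libraries, at 1167 to 1734 CPM. Of the 12 markers 4 were called lower and 0 higher, beside 4.68% and 2.65% of all tested genes, while 8 were not called. The median log2 fold change of the 12 was -1.13, with 11 negative and 1 positive, Slc5a12 (a lactate carrier) at 0.50 (SE 0.75), and without VHL-KO replicate 4 the median was -0.90 and Slc5a12 was at 0.02 (SE 0.50). Those called lower included Slc34a1, Aqp1 (a water channel) and the transcription factor Hnf4a. Without VHL-KO replicate 4 there were 8 called lower, beside 7.14% of all tested genes. Without VHL-KO;SETD2-KO replicate 2, 3 or 4 the number called was 0, 1 and 0. It was 3 without VHL-KO replicate 1 and 4 without VHL-KO replicate 2. The share of all tested genes called is not given for these fits, so nothing is read from these counts. Of the markers called lower over all 6 libraries, Hnf4a was at 737, 664 and 986 CPM against 303, 448 and 412 CPM. In bulk samples, fewer cells of a type and less RNA per cell cannot be told apart.

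Set against the proximal tubule marker sum of the same library, the family sum was 2.93%, 3.37% and 8.78% under VHL-KO and 2.99%, 2.49% and 2.81% under VHL-KO;SETD2-KO. On this scale the labels overlapped, and the ratio of the means was 1.82, or 1.14 without VHL-KO replicate 4. The members differed in this respect. Nat8 was at 0.754%, 0.957% and 2.94% of the marker sum under VHL-KO and at 0.714%, 0.431% and 0.588% under VHL-KO;SETD2-KO, still without overlap. Nat8f5 was at 0.187%, 0.309% and 0.271% against 0.185%, 0.113% and 0.156%, also without overlap, though by a very small gap. Nat8f6 did not overlap either against the marker sum, but it did against the mean log2 level of the same markers, a scale on which each marker has equal weight. Nat8f1 was at 1.38%, 1.34% and 4.84% against 1.47%, 1.36% and 1.41%, so that its labels overlapped, and in VHL-KO replicates 1 and 2 its mean was 0.960-fold that of VHL-KO;SETD2-KO. The same ratio without VHL-KO replicate 4 was 1.48 for Nat8, 1.64 for Nat8f5, 1.34 for Nat8f6 and 1.00 for Nat8f2. It was 0.879 for Nat8f3, 0.896 for Nat8f4 and 0.277 for Nat8f7. These scales were chosen after the data were seen.

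**Figure D4:**
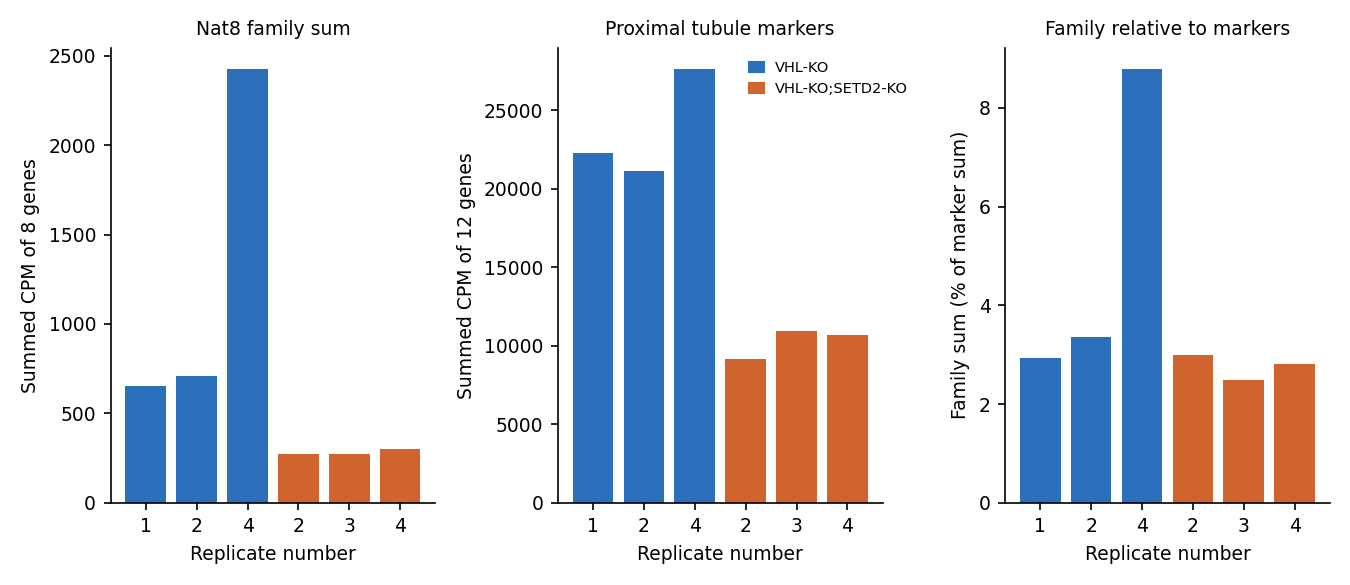
Summed CPM of the 8 family genes, summed CPM of 12 proximal tubule markers, and the first as a percent of the second, in each library. The family and marker sums of VHL-KO;SETD2-KO are below those of VHL-KO in every library, whereas the percentages overlap, at 2.49 to 2.99 against 2.93 to 8.78.

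Markers of other cells were measured as well. The 4 podocyte markers summed to 1303 to 1765 CPM under VHL-KO and 1666 to 4380 CPM under VHL-KO;SETD2-KO, with 3 of 4 called higher. The 4 endothelial markers summed to 715 to 1522 CPM against 1090 to 3569 CPM, with overlap and with 0 of 4 called. The 4 intercalated cell markers summed to 9.70 to 43.8 CPM against 42.7 to 102 CPM, with 2 of 4 (Atp6v1g3 and Slc26a4) called higher. The 3 markers of the distal convoluted tubule summed to 531 to 1764 CPM against 871 to 2189 CPM, with 1 of 3 (Calb1) called higher. The numbers called higher in these 4 lists were also 3, 0, 2 and 1 without VHL-KO replicate 4, but the genes differed in part. Foxi1 was called there in place of Slc26a4, and Slc12a3 in place of Calb1. Of all tested genes 8.29% were called higher there, against 2.65% over all 6 libraries. VHL-KO;SETD2-KO replicate 3 was the lowest of its label in the podocyte and endothelial sums, and replicate 2 the highest, and their Nat8 family sums were both 273 CPM. The 4 principal cell markers summed to 519 CPM in VHL-KO replicate 4 and to 42.9 to 182 CPM in the other libraries. No marker of these 5 lists was at 0 in all libraries, and the part of other cells in the levels of the family was not tested.

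Genes of the pathway in which NAT8 takes the last step were lower in part. Of 41 listed by function, 35 were tested, and 11 were called lower and 0 higher, beside 4.68% and 2.65% of all tested genes. Without VHL-KO replicate 4, 12 were called lower and 3 higher, beside 7.14% and 8.29% of all tested genes. The median log2 fold change was -0.92, and -0.31 without that library. Without VHL-KO;SETD2-KO replicate 2, 3 or 4, the number called was 6, 7 and 5. It was 11 without VHL-KO replicate 1 and 13 without VHL-KO replicate 2. The share of all tested genes called is not given for these fits, so nothing is read from these counts. All 11 genes called over all 6 libraries had an adjusted p of 0.625 by edgeR, and the list was drawn up with results of these data known. Among the glutathione S-transferases and related enzymes of the first step, 3 of 18 were called lower. One of them was Gstz1, at 271, 245 and 531 CPM under VHL-KO and 126, 167 and 134 CPM under VHL-KO;SETD2-KO (log2 fold change -1.29, SE 0.46, and -0.86, SE 0.18, without VHL-KO replicate 4), and the others were Gstm1 and Gstm4. Among the peptidases that trim the glutathione conjugate, 4 of 7 were called lower. Ggt1, the gamma-glutamyltransferase that makes the first cut, was at 920, 838 and 4161 CPM against 373, 415 and 442 CPM, with a log2 fold change of -2.27 (SE 0.71), and -1.10 (SE 0.18) without VHL-KO replicate 4. Anpep, aminopeptidase N, was at 145, 169 and 298 CPM against 63.4, 77.3 and 74.3 CPM, with a log2 fold change of -1.51 (SE 0.44), and -1.13 (SE 0.15) without that library. For Ggt1 and Anpep every VHL-KO;SETD2-KO library was below every VHL-KO library. Dpep1, the renal dipeptidase, was at 85.7, 54.5 and 515 CPM against 46.6, 74.3 and 51.8 CPM. The labels of Dpep1 overlapped, and its log2 fold change of -1.92 (SE 0.83) was -0.29 (SE 0.28) without VHL-KO replicate 4. Lap3, a leucine aminopeptidase, was the remaining one.

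Of the 4 enzymes that act on the cysteine conjugate or its acetylated form in other ways, 3 were called lower. Kyat1, a cysteine conjugate beta-lyase that competes with acetylation, was at 91.1, 94.9 and 227 CPM under VHL-KO and 27.4, 35.8 and 46.2 CPM under VHL-KO;SETD2-KO, with a log2 fold change of -1.92 (SE 0.51), and -1.36 (SE 0.22) without VHL-KO replicate 4. Acy3, which deacetylates mercapturic acids, was at 1686, 1459 and 4728 CPM against 720, 174 and 735 CPM (log2 fold change -2.27, SE 0.74, and -1.54, SE 0.59, without that library). Acy1, an aminoacylase with broader substrates, was at 101, 123 and 417 CPM against 60.8, 78.3 and 73.8 CPM (log2 fold change -1.59, SE 0.61, and -0.66, SE 0.17, without that library). The labels did not overlap for any of these 3. Of the 4 transporters, Slc22a6, the basolateral organic anion transporter OAT1, was called lower, at 1095, 1043 and 2498 CPM against 442, 302 and 469 CPM (log2 fold change -1.93, SE 0.53, and -1.41, SE 0.24, without that library). Slc33a1, which carries acetyl-CoA into the endoplasmic reticulum, was at 144, 133 and 31.2 CPM against 81.5, 76.1 and 79.5 CPM. Its log2 fold change was -0.38 (SE 0.57), not called, and -0.81 (SE 0.13), called, without VHL-KO replicate 4. Bace1, whose protein is a described substrate of lysine acetylation in the endoplasmic reticulum, had a log2 fold change of 0.58 (SE 0.36) and was not called. Its log2 fold change was 0.55 (SE 0.20) without VHL-KO replicate 4.

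**Figure D5:**
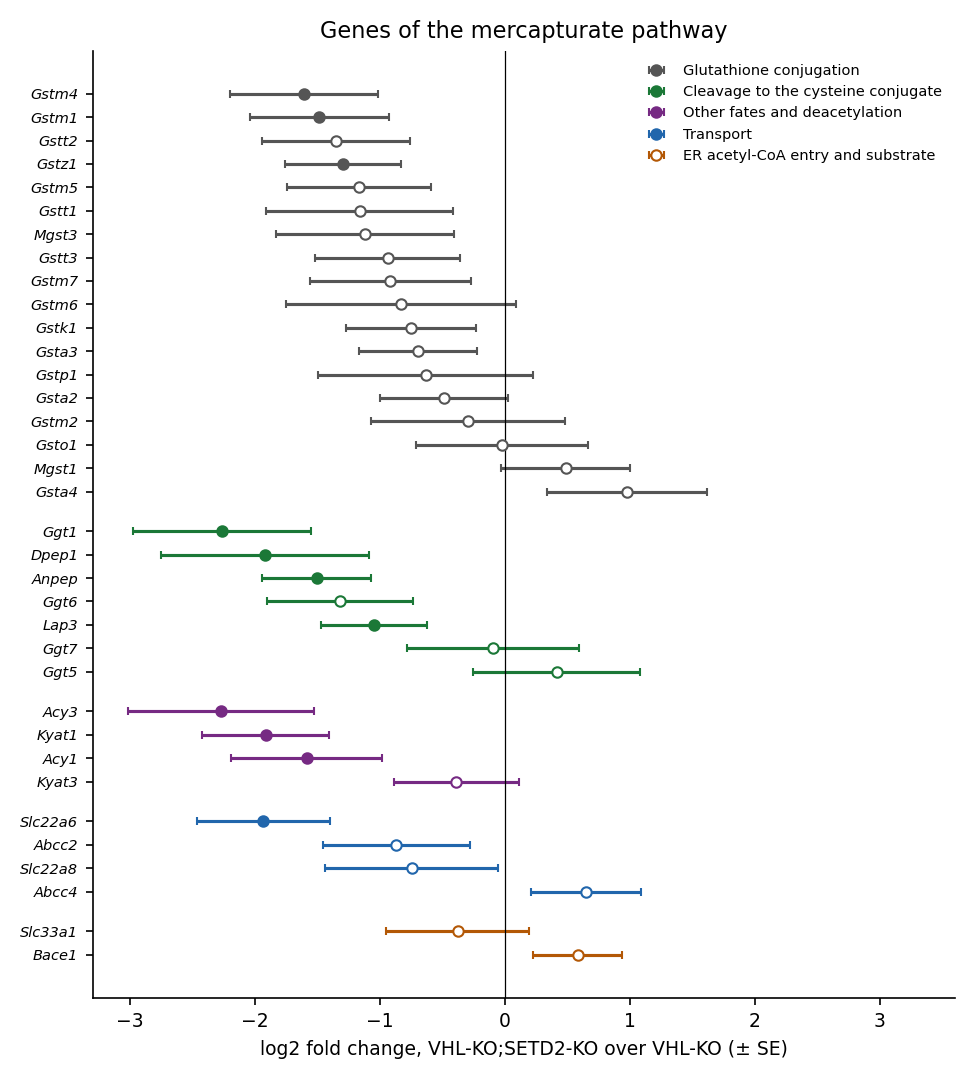
Log2 fold change, VHL-KO;SETD2-KO over VHL-KO, with its standard error for the 35 tested genes of the mercapturate pathway, grouped by role. Filled points are genes called at an unadjusted p under 0.05 with a change of at least 1.5-fold. The 11 filled points all lie below 0.

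Other N-acetyltransferases were examined beside the family. Of 23 listed, which include the N-terminal and polyamine acetyltransferases and the deacylase Aspa, 18 were tested and 0 were called by edgeR in either direction. At an unadjusted p under 0.05 alone the number was also 0, and DESeq2 called 1 lower, beside 7.79% of the genes it tested. Their median log2 fold change was -0.41, and -0.21 without VHL-KO replicate 4. Without VHL-KO replicate 4, Nat2, Glyat and Aspa were called lower, beside 7.14% of all tested genes, against 4.68% over all 6 libraries. Nat8l, the paralogue that makes N-acetylaspartate in brain, had 1, 3 and 16 counts under VHL-KO and 4, 2 and 7 under VHL-KO;SETD2-KO, and did not pass the filter.

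Genes next to the array were examined as well. By order of position 24 genes were listed, 4 inside the array and 10 on either side. Of these 9 were tested, none of them among the 4 inside. Alms1 (85587498 to 85726611) and Tprkb (85911860 to 85930284), listed outside and tested, reach into the array by RefSeq coordinates. Alms1 spans Nat8f7, and Tprkb covers part of Nat8f1. Rab11fip5, an effector of RAB11 in vesicle recycling, was the 1 called lower, with a log2 fold change of -1.38 (SE 0.53), and -0.68 (SE 0.14) without VHL-KO replicate 4. Without that library Sfxn5 and Tprkb were called lower as well, and without any 1 of the VHL-KO;SETD2-KO libraries 0 were called. Leaving out VHL-KO replicate 1 or 2 gave 1 and 2 called. Among all tested genes 4.68% were called lower, and 7.14% without VHL-KO replicate 4. That share is not given for the other libraries left out, so nothing is read from those counts. The median log2 fold change of the 9 was -0.74, and -0.17 without VHL-KO replicate 4.

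The genes whose profile over the 6 libraries was most like that of Nat8 were named by the Euclidean distance between centred log2 CPM profiles, among 9513 genes with a mean log2 CPM of at least 3. They were Serpinf2 (distance 0.46), Galns (0.63), Treh (0.71), Slc51a (0.76), Ttc36 (0.76) and Proc (0.81). Serpinf2, which encodes alpha-2-antiplasmin, was at 331, 302 and 1323 CPM under VHL-KO and 123, 82.4 and 141 CPM under VHL-KO;SETD2-KO. Of the other members, Nat8f1 ranked 17 in this order, Nat8f6 108, Nat8f5 121 and Nat8f2 3776, and the rest were below the level required. Over the 5 libraries without VHL-KO replicate 4, Nat8f5 was the nearest of all genes (distance 0.29), Nat8f2 ranked 68, Nat8f6 88 and Nat8f1 202, and 0 of the 6 genes above were among the nearest 6. Those 6 ranked 13 (Serpinf2), 29 (Galns), 43 (Proc), 69 (Treh), 92 (Slc51a) and 111 (Ttc36) there, of 9513.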

How the data were processed

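RNA-seq counts of PTECs from 6 mice, 3 per label, were analysed. The values deposited by the authors are unnormalized read counts, 1 row per symbol and 1 column per library, made from directional, paired-end libraries. HISAT2 2.0.4 and GRCm38 are named in the submitters' processing notes. The counter, its annotation, its use of strand and its handling of reads that match several places were not given in the sources used here. Whether same-numbered mice were related was not stated either.

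Counts were scaled by TMM and fitted with the label as the only factor with edgeR 4.0.16 (R 4.3.3). Each SE was derived from the quasi-likelihood test, as the absolute log2 fold change over the square root of its F statistic. It thus restates that test and is no separate measure of spread. Of the 46095 rows, filterByExpr kept 14611. CPM were computed with TMM factors, and log2 CPM with a prior count of 2. Genes were called at an unadjusted p under 0.05 with a change of at least 1.5-fold, as the study states these thresholds without saying whether p was adjusted, with Benjamini-Hochberg adjustment over all tested genes beside them. DESeq2 1.42.0, limma-voom (limma 3.58.1), RLE size factors, other filters, library sizes without mitochondrial genes, the replicate number as a block and leaving out each library were alternatives. The fit was tested on simulated counts. Sequences are from RefSeq (GRCm38.p6) and GENCODE M21, aligned with Biopython 1.88.

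The members and all gene lists were chosen with earlier results of these data known. Genes named are the 8 members, Setd2, Cdh16, up to 6 called genes per list in order of p, the 6 genes nearest to Nat8, and Ggt1, Dpep1, Acy1, Acy3, Slc33a1 and Nat8l. Gstm1, Gstm4, Lap3, Bace1, Nat2, Glyat, Aspa, Sfxn5, Tprkb, Alms1, Lrp2, Slc5a12, Atp6v1g3, Slc26a4, Foxi1, Slc12a3 and Calb1 were named after their values were seen. Some listed genes and a motif are not reported here.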

Additional observations from a re-analysis of the deposited data

How the results depend on the processing

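Over the 13 alternatives, 103 of the 104 recomputed fold changes of the members kept their sign, and Nat8f7 reversed: its log2 fold change, with 1 library left out at a time, ran from -1.05 to 0.81, the latter without VHL-KO replicate 4. Without that library the log2 fold change of Nat8 was -1.67 and that of Nat8f1 -1.03. Leaving out 1 library at a time gave 4 to 6 members called lower, a median log2 fold change of the members of -1.82 to -1.06, 5 to 15 mercapturate pathway genes called, 0 to 3 neighbouring genes, 0 to 3 other N-acetyltransferase genes and 0 to 8 proximal tubule markers. In these last 4 lists the highest counts came without VHL-KO replicate 4, where 7.14% of all tested genes were called lower and 8.29% higher. That share is not given for the other libraries left out, so nothing is read from these counts.

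With an adjusted p under 0.05 in place of an unadjusted one, 0 members, 0 pathway genes, 0 neighbours and 0 proximal tubule markers were called by edgeR. At an unadjusted p, DESeq2 called 9 proximal tubule markers and 1 other N-acetyltransferase gene lower. It called 7.79% of all genes it tested lower, against 4.68% by edgeR. At an unadjusted p, edgeR with no filter on low counts called 2 neighbours. The share of all genes called is not given for that fit, so nothing is read from that count. The labels share replicate numbers 2 and 4 only by number: the deviations of same-numbered libraries correlated at 0.16 and -0.32. Blocking on that number left 1 member called lower, 0 pathway genes, 0 neighbours and 0 proximal tubule markers called. The share of all tested genes called with this block is not given, so nothing is read from these counts. Replicates 1 and 3 have no partner, so this block leaves 4 libraries for the comparison.

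Relative to the proximal tubule marker sum the ratio of the family means was 1.82 in place of 4.48, or 1.14 without VHL-KO replicate 4. On that scale 3 members did not overlap between the labels in place of 5, or 2 relative to the mean log2 level of the markers. The share of all tested genes without overlap is not given for these 2 scales, so nothing is read from these counts. Without VHL-KO replicate 4 the ratio of the family means was 2.42, and 0 of the 6 genes nearest to Nat8 were the same. The causes of these moves were not tested. The p-values measure the spread between 3 mice per label, and counts of Nat8f3, Nat8f6 and Nat8f7 depend on how shared reads were assigned.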
